A study of Mus musculus with 8 samples.

Results

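The genes described here are the 9 S100 calcium-binding genes S100a1, S100a4, S100a6, S100a8, S100a9, S100a10, S100a11, S100a13 and S100b, taken by symbol from the 21848 genes of the count matrices. They were read in single cells from the lesion site of the right sensorimotor cortex, 6 days after a photothrombotic stroke, in 4 mice given saline and 4 mice given ancrod, a snake venom enzyme that depletes fibrinogen from blood. All 8 mice were adult females of the genotype labelled Bl/J6. Each mouse received Rose Bengal and 6 min of light over a 4 mm spot, and each carried an osmotic minipump from 2 days before the injury, filled with saline or delivering 2.4 U of ancrod per day. The mice were perfused, the meninges were stripped, and the tissue block was dissociated and cleared of red cells and myelin without enrichment for a cell type, so that the cell classes stand in the shares that dissociation left. Replicates 1 to 3 of both groups formed one injury and sequencing batch and replicate 4 of both groups the other. The tissue taken held the lesion and the spared cortex around it, and no mouse without a stroke was sampled, so the levels below mix lesion and spared tissue of injured brains.

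S100 proteins are small EF-hand proteins that change shape on binding calcium and then dock onto partner proteins. S100a8 and S100a9 pair to form calprotectin, which fills the cytoplasm of neutrophils and, once released, is a ligand of the receptors Tlr4 and Ager. S100a10 is the partner of annexin A2 and of Ahnak, S100a11 binds annexin A1, S100a6 binds Cacybp, and S100a4, also known as fibroblast-specific protein, binds the non-muscle myosin Myh9. S100b is a widely used astrocyte gene, S100a13 takes part in the release of Fgf1, and S100a1 is best known from muscle.

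In the mouse genome (GRCm39), 8 of the 9 genes lie on chromosome 3 within 3.06 Mb. The first 6, S100a13, S100a1, S100a4, S100a6, S100a8 and S100a9, lie within 187 kb, and S100a11 and S100a10 follow after a gap of 2.81 Mb. S100a4 (ENSMUSG00000001020) spans chr3:90511074-90513354 on the plus strand. S100a6 (ENSMUSG00000001025) spans chr3:90520140-90535843 on the plus strand. S100a8 (ENSMUSG00000056054) spans chr3:90567118-90578128 on the plus strand, and S100a9 (ENSMUSG00000056071) lies on the minus strand at chr3:90599931-90603071. S100a11 (ENSMUSG00000027907) and S100a10 (ENSMUSG00000041959) span chr3:93414382-93435293 and chr3:93462213-93474510, both on the plus strand. S100b (ENSMUSG00000033208) stands apart on chromosome 10, at chr10:76085090-76097159 on the plus strand. S100a1 (ENSMUSG00000044080; chr3:90418340-90421848, minus strand) sits wholly inside S100a13 (ENSMUSG00000042312; chr3:90416091-90431912, plus strand), so that 3509 bases belong to both genes and only the strand of a read tells them apart. The strand setting of the counting is not given in the sources used here, and the levels of S100a1 and S100a13 are therefore uncertain where they move together.

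The 250 bases upstream of the RefSeq start are shown for S100a8 and S100a9, whose levels had the widest range of the 9 genes. They are also shown for S100a4 of the same stretch of chromosome 3, which was highest in another class of blood-borne cells. They come from RefSeq promoters of GRCm38.p6 and were placed on GRCm39 by an exact match, at chr3:90510827-90511076 for S100a4, chr3:90576128-90576377 for S100a8 and chr3:90603029-90603278, minus strand, for S100a9. Each is written 5′ to 3′ along its gene, and capitals mark matches to TATAAA, TTNCNNAA (a C/EBP core), TGANTCA (an AP-1 core), GGGCGG (an Sp1 core) or AGGAAG (a PU.1 core), searched on both strands.
S100a4: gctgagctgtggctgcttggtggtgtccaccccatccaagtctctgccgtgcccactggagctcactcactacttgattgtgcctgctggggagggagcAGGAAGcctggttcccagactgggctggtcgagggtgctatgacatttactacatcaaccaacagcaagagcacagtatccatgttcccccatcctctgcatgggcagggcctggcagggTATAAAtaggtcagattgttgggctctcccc
S100a8: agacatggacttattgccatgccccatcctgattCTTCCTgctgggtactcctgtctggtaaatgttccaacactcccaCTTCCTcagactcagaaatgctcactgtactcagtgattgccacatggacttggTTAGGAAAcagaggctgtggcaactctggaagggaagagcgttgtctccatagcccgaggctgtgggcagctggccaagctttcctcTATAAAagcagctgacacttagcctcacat
S100a9: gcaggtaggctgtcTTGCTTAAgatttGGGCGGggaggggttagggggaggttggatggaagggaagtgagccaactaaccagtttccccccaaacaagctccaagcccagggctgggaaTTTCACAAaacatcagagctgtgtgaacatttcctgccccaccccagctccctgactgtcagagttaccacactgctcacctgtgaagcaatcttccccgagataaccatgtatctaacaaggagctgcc
TATAAA was found in the windows of S100a4 and S100a8, in each about 30 bases before the start, and in 12.4% of 32851 RefSeq promoters of the same length. TTNCNNAA was found in S100a8 and S100a9 and in 36.8% of all promoters. AGGAAG was found in S100a4, S100a8 and S100b and in 29.5% of all promoters, and GGGCGG in S100a9 and S100a11 and in 32.7%. TGANTCA was found in S100a11 alone of the 8 genes with a promoter in the table, and in 6.75% of all promoters. The table held no window for S100a10. These matches describe letters and were not tested as binding sites.

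A droplet was kept as a cell with at least 2000 UMIs (counted RNA molecules) and under 20% of them from mitochondrial genes, and 44072 of 46216 such droplets remained after doublets were removed. Total UMIs ran from 97861434 to 122758649 per library in saline mice and from 126682918 to 142139441 in ancrod mice, so the ancrod libraries were the deeper ones without overlap. The barcodes shared by any pair of libraries numbered 3 to 15. Cells were clustered without the 9 genes and named from markers as neutrophil-like, monocyte-like and so on; 13 of 56 clusters, with 6450 cells, kept no name. The 13 classes compared held from 156 oligodendrocyte precursor-like cells to 16951 microglia-like cells. The neutrophil-like class held 705 cells, with 12, 53, 70 and 39 in saline mice 1 to 4 and 192, 240, 74 and 25 in ancrod mice 1 to 4, and saline mouse 1 therefore carries the least precise neutrophil values. The oligodendrocyte precursor-like cluster scored 1.00 for precursor markers and 0.996 for markers of mature oligodendrocytes, and no cluster was named for the latter. Its summed precursor markers averaged 9799 CPM in saline and 8530 CPM in ancrod mice. Those of mature oligodendrocytes averaged 84.3 and 182 CPM, and any mature cells in it were not separated. Levels are given as counts per 1000000 UMIs (CPM) of the summed cells of a class in one mouse, as mean ± SD over mice. Droplets with at most 100 UMIs stand for RNA set free in the suspension. Their CPM give the make-up of that RNA, not the level it reaches inside a cell. A class at or below them is thus not shown to lack the gene.

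S100a8 and S100a9 were highest in neutrophil-like cells. In neutrophil-like cells S100a8 read 18468, 41966, 55444 and 76691 CPM in the saline mice and 61389, 27098, 23878 and 54793 CPM in the ancrod mice, a mean of 44966 ± 20555 CPM (SD, n = 8). S100a9 read 23553, 52167, 71809 and 93358 CPM in the saline mice and 72810, 31031, 37302 and 58899 CPM in the ancrod mice, a mean of 55116 ± 23817 CPM (SD, n = 8). Every mouse was high and the groups overlapped. Beside these values, the same genes in microglia-like cells averaged 2.48 ± 2.12 and 1.97 ± 2.20 CPM and in neuron-like cells 1.05 ± 2.12 and 1.23 ± 1.44 CPM (n = 8 and 7). When each cell was thinned to 2000 UMIs, 95.9% ± 2.33 of neutrophil-like cells held an S100a8 UMI and 96.2% ± 2.91 an S100a9 UMI (SD, n = 8), against 0.204% ± 0.540 of neuron-like cells (SD, n = 7) for either gene.

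Empty droplets carried 241 ± 272 CPM of S100a8 and 257 ± 281 CPM of S100a9, and the neutrophil-like class was the only one of 13 above them for either gene by the test used. On the log2(CPM + 1) scale the excess was 8.11 ± 1.31 for S100a8 and 8.39 ± 1.5 for S100a9, in 8 of 8 mice (two-sided exact sign-flip permutation test, p = 0.00781, the smallest that 8 mice allow; adjusted p = 0.0155 over 173537 gene and class pairs). Over all genes at 10 CPM or more in a class, 30.2% of the pairs lay above the empty droplets by this test and 41.2% below. In microglia-like cells S100a8 lay below the empty droplets by 5.57 log2 units. Neutrophil-like cells held 82.8% of the S100a8 UMIs of kept cells (66.8% to 94.0% over mice) and 91.2% of those of S100a9 (72.3% to 98.5%).

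**Figure D1:**
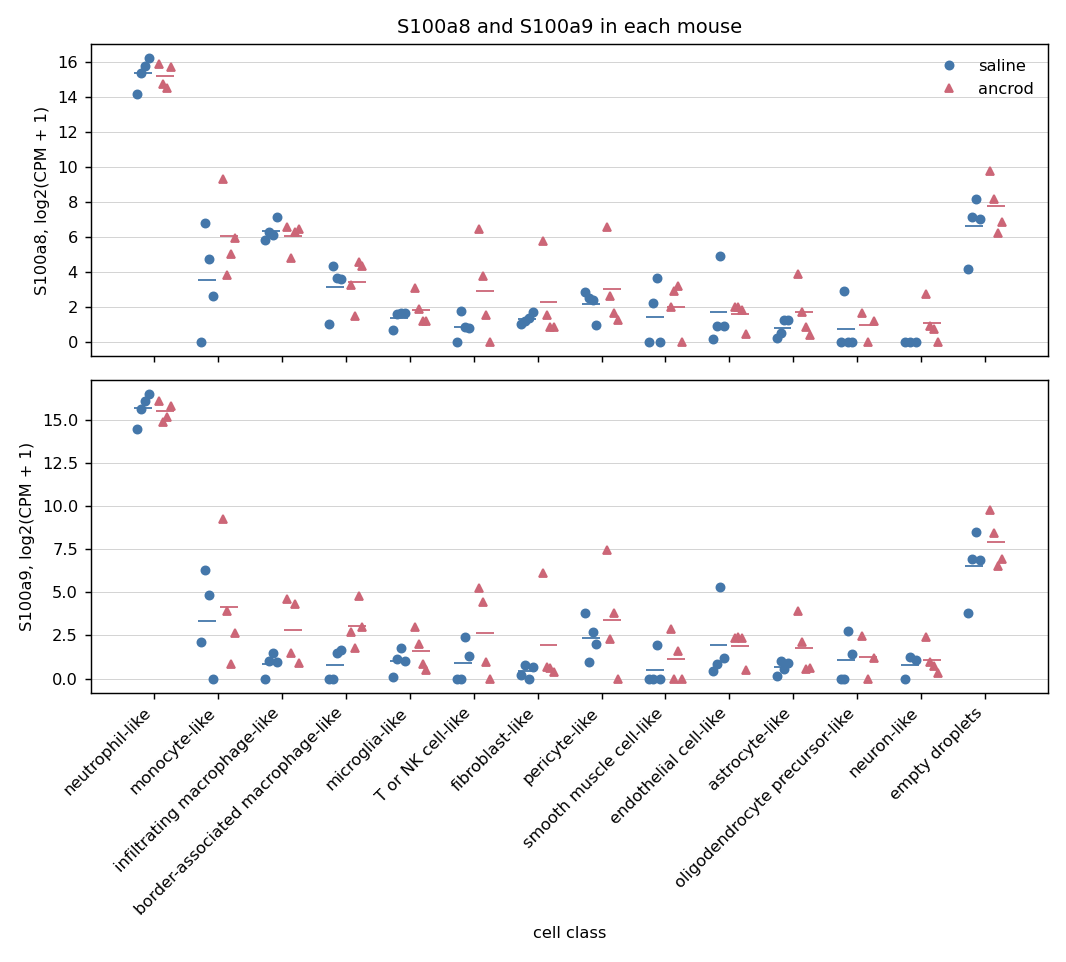
S100a8 and S100a9 in CPM on a log axis, per mouse (saline circles, ancrod triangles) and class, with empty droplets beside them. Neutrophil-like cells lie at 18468 CPM or more in every mouse, while monocyte-like cells average 113 CPM of S100a8, or 35.9 CPM without ancrod mouse 1, and infiltrating macrophage-like cells 79.2 CPM.

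These genes also differed most between mice. Over all kept cells S100a8 ran from 15.3 CPM in saline mouse 1 to 884 CPM in ancrod mouse 1, a 57.7-fold range, and S100a9 from 14.4 to 968 CPM in the same mice, a 67.3-fold range. The empty droplets of the same mice ran from 17.1 to 871 CPM for S100a8, a 51.0-fold range. Without ancrod mouse 1, the mean over all kept cells of the other ancrod mice was 179 CPM for S100a8 and 207 CPM for S100a9, beside 169 and 200.3 CPM in saline mice. The other 7 genes ranged 1.39-fold to 5.24-fold over the 8 mice. The number of neutrophil-like cells did not follow these levels in every mouse: saline mouse 4 had 39 such cells and 258 CPM of S100a8 over all kept cells, and ancrod mouse 3 had 74 and 89.0 CPM, with 76691 and 23878 CPM within the class. In the level of a whole library alone, fewer cells and less RNA per cell cannot be told apart.

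Infiltrating macrophage-like cells differed from the empty droplets in the balance of the pair. In them S100a8 read 56.3, 77.6, 67.9 and 143 CPM in saline mice and 94.8, 27.0, 79.0 and 88.3 CPM in ancrod mice, and S100a9 averaged 6.11 ± 9.47 CPM (SD, n = 8). The sums were 5857 S100a8 UMIs and 563 S100a9 UMIs. By mouse the S100a8 and S100a9 UMIs of this class were 285 and 0, 535 and 7, 691 and 18, and 1102 and 7 in the saline mice, and 1175 and 295, 293 and 19, 878 and 208, and 898 and 9 in the ancrod mice. The ratio of S100a8 to S100a9 UMIs in empty droplets lay between 0.807 and 1.29 in every mouse, and in neutrophil-like cells between 0.640 and 0.930. In infiltrating macrophage-like cells it exceeded that of the same mouse's empty droplets by 5.32 ± 2.34 on the log2 scale (SD, n = 8), with 8 of 8 mice above (exact sign-flip permutation test, p = 0.00781; adjusted p = 0.0406 over 13 classes). The level of S100a8 in this class was itself not above that of the empty droplets (log2 difference -0.999 ± 1.75; exact sign-flip permutation test, p = 0.156). The S100a8 UMIs were uneven among cells: 5 to 29 cells per mouse had 10 or more, and these held 54.6% to 79.7% of them. Of the S100a9 UMIs, 4 cells held 82.4% in ancrod mouse 1 and 1 cell held 97.1% in ancrod mouse 3. At 2000 UMIs per cell, 7.72% ± 2.87 of the class held an S100a8 UMI and 0.506% ± 0.684 an S100a9 UMI, beside 0.497% ± 0.474 and 0.380% ± 0.495 of microglia-like cells (SD, n = 8).

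The ratio differed from the empty droplets in 4 further classes, all at an adjusted p of 0.0406 by the exact sign-flip permutation test. It was higher by 0.90 log2 units in microglia-like cells (8 of 8 mice), by 1.76 in border-associated macrophage-like cells and by 1.36 in fibroblast-like cells (7 of 8 mice each), and lower by 0.40 in endothelial-like cells (7 of 8 mice). The ratios of UMIs summed over mice were 1.23, 1.98, 0.84 and 0.75 in that order. Those of microglia-like and fibroblast-like cells lay inside the range of the empty droplets. Some mice had few UMIs, such as 2 of S100a8 and 0 of S100a9 in fibroblast-like cells of saline mouse 3. Border-associated macrophage-like cells of saline mouse 1 had 1 and 0. All 5 calls rest on p-values near the smallest that 8 mice allow and did not pass at a minimum of 5000 UMIs, with doublets kept and with empty droplets of at most 20 UMIs. Leaving out any mouse gave 0 calls as well. In neutrophil-like cells the log2 difference was -0.28 (adjusted p = 0.0677 by the exact sign-flip permutation test).

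**Figure D2:**
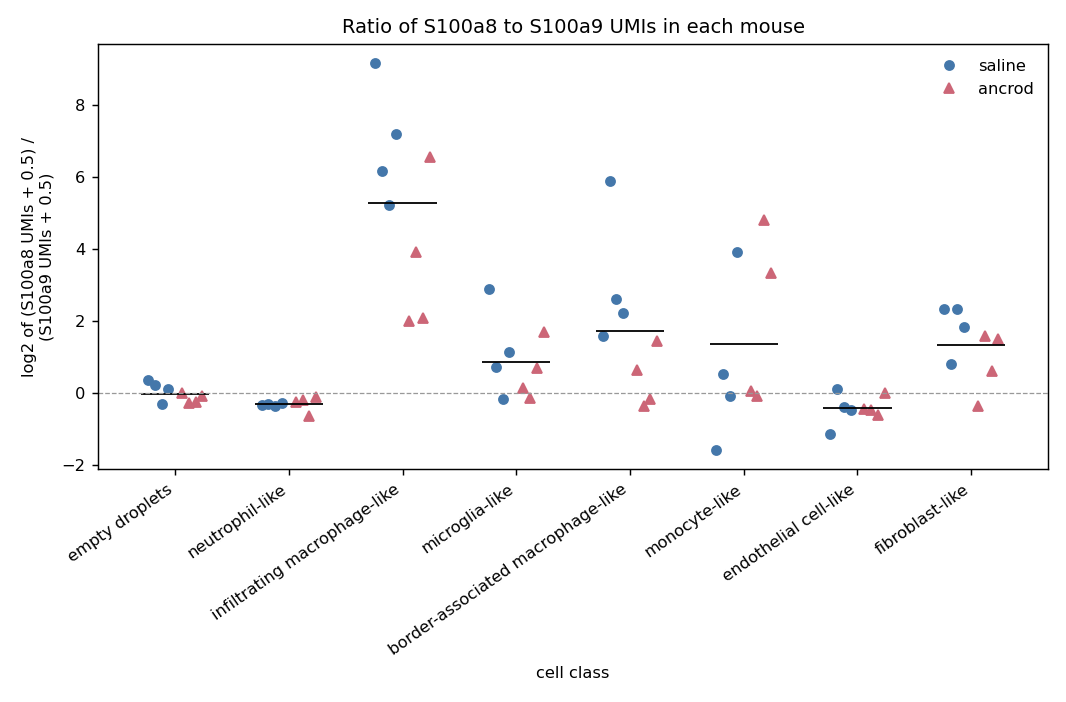
Ratio of S100a8 to S100a9 UMIs on a log axis, per mouse (saline circles, ancrod triangles) and class, with empty droplets beside them. Infiltrating macrophage-like cells lie above the empty droplets of their own mouse in 8 of 8 mice, and empty droplets lie between 0.807 and 1.29.

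S100a4 marked monocyte-like cells and not fibroblast-like cells. It read 1058, 1538, 1433 and 1229 CPM in monocyte-like cells of saline mice 1 to 4 and 1519, 1220, 1125 and 1285 CPM in those of ancrod mice 1 to 4, a mean of 1301 ± 179 CPM (SD, n = 8). T or NK-like cells followed at 440 ± 78.9 CPM, 1.57 log2 units lower (exact sign-flip permutation test over 8 mice, p = 0.00781, adjusted p = 0.0402 over 108 neighbouring pairs of classes). This step and those given below at the same adjusted p did not pass with at least 5000 UMIs per cell. Fibroblast-like cells averaged 14.3 ± 16.6 CPM, below the 73.16 ± 15 CPM of empty droplets. With cells thinned to 2000 UMIs, 77.6% ± 5.23 of monocyte-like cells and 2.66% ± 2.24 of fibroblast-like cells held an S100a4 UMI (SD, n = 8). Neutrophil-like cells, high in S100a8 and S100a9, averaged 17.3 ± 26.2 CPM of S100a4. Monocyte-like cells held 22.7% of all S100a4 UMIs and the unnamed clusters 55.3%. Among the unnamed ones, the cluster of 631 cells led by the MHC class II gene H2-Eb1 read 1068 CPM and the cluster of 591 cells led by the lectin gene Lgals3 and the scavenger receptor gene Cd36 read 1270 CPM, summed over mice.

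S100a6, S100a10 and S100a11 were each above the empty droplets in several classes. S100a6 was above them in 6 of 13 classes, namely neutrophil-like, monocyte-like, T or NK-like, fibroblast-like, astrocyte-like and oligodendrocyte precursor-like cells. S100a10 was above them in 5, namely T or NK-like, monocyte-like, fibroblast-like, border-associated macrophage-like and astrocyte-like cells. S100a11 was above them in 6, namely neutrophil-like, fibroblast-like, smooth muscle-like, monocyte-like, pericyte-like and T or NK-like cells. S100a6 averaged 3866 ± 2222 CPM in neutrophil-like cells, 1933 ± 369 CPM in monocyte-like cells and 1785 ± 406 CPM in fibroblast-like cells (SD, n = 8). The neutrophil-like value ran from 1343 CPM in saline mouse 1 to 7860 CPM in saline mouse 4, and the step down to monocyte-like cells did not pass after adjustment (log2 difference 0.82; exact sign-flip permutation test, adjusted p = 0.0511). Astrocyte-like cells held 975 ± 210 CPM of S100a6, and the level differed among their clusters: 409 and 109 CPM in the clusters of 1851 and 418 cells led by Gpc5, 1400 CPM in the one led by Aldoc, Mt3 and Clu and 2402 CPM in the one led by Myoc.

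S100a11, the annexin A1 partner, averaged 3209 ± 832 CPM in neutrophil-like cells, 1063 ± 92.4 CPM in fibroblast-like cells, 681 ± 92.0 CPM in smooth muscle-like cells and 557 ± 149 CPM in pericyte-like cells (SD, n = 8). The first step, neutrophil-like over fibroblast-like, was 1.56 log2 units and the next, fibroblast-like over smooth muscle-like, 0.65, each in 8 of 8 mice (exact sign-flip permutation tests, adjusted p = 0.0402). S100a10, the annexin A2 partner, had another order. It was highest in T or NK-like cells at 696 ± 86.8 CPM, then in monocyte-like cells at 514 ± 174 CPM and fibroblast-like cells at 423 ± 131 CPM, and it read 12.3 ± 12.6 CPM in neutrophil-like cells (SD, n = 8). The first step, from T or NK-like to monocyte-like cells, did not pass the test (log2 difference 0.51; exact sign-flip permutation test, adjusted p = 0.161), and the step from fibroblast-like cells to border-associated macrophage-like cells did (1.07, adjusted p = 0.0402). At 2000 UMIs per cell, 68.2% ± 5.62 of T or NK-like cells held an S100a10 UMI against 0.822% ± 0.292 of microglia-like cells (SD, n = 8). Fibroblast-like cells contributed 36.8% of the S100a6 UMIs (7.75% to 71.5% over mice) and 36.5% of those of S100a11 (7.58% to 62.4%). They contributed 26.6% of those of S100a10 (6.80% to 59.1%). The unnamed clusters held 23.8%, 23.1% and 33.7% of the UMIs of these 3 genes.

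Microglia-like cells, the most numerous class, were low in these genes. They averaged 5.47 ± 1.91 CPM of S100a6, 6.38 ± 1.25 CPM of S100a11 and 3.73 ± 0.933 CPM of S100a10 (SD, n = 8), while the empty droplets of the same libraries held 449 ± 131, 228 ± 51.9 and 137.4 ± 39.97 CPM. The differences were -6.13 log2 units for S100a6 and -4.94 for S100a11, in 8 of 8 mice.

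**Figure D3:**
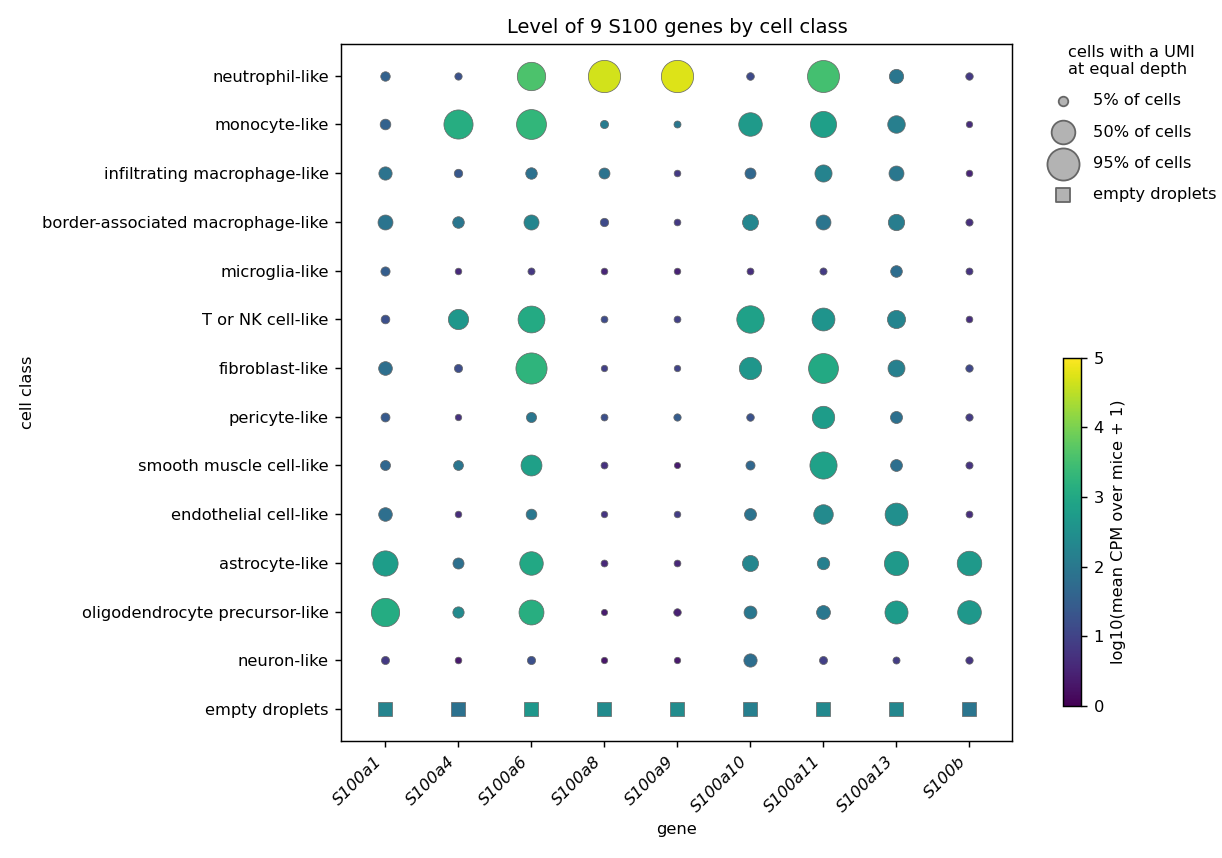
Mean CPM over mice of the 9 genes in the 13 classes and in empty droplets, on a log colour scale. S100a8 and S100a9 are high in neutrophil-like cells, S100b in astrocyte-like and oligodendrocyte precursor-like cells, and microglia-like cells are low for S100a6, S100a10 and S100a11.

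S100b, S100a1 and S100a13 were highest in the glial classes. S100b read 449, 394, 538 and 428 CPM in astrocyte-like cells of saline mice 1 to 4 and 522, 509, 422 and 547 CPM in those of ancrod mice 1 to 4, a mean of 476 ± 59.5 CPM (SD, n = 8). Oligodendrocyte precursor-like cells averaged 468 ± 164 CPM (SD, n = 7, since ancrod mouse 2 had under 10 such cells), and the 2 classes did not differ beyond their spread (log2 difference 0.07; exact sign-flip permutation test, p = 0.688). Of the classes that follow, fibroblast-like cells had the highest mean, 11.04 CPM. Astrocyte-like cells held 65.6% of all S100b UMIs, and at 2000 UMIs per cell 53.9% ± 6.35 of them had one, against 0.942% ± 0.381 of microglia-like cells (SD, n = 8). The clusters of the class differed in S100b too, with 861 CPM in the one led by Aldoc, Mt3 and Clu, 455 CPM in the one led by Myoc, and 449 and 110 CPM in the larger and the smaller one led by Gpc5.

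S100a1 averaged 1188 ± 292 CPM in oligodendrocyte precursor-like cells (SD, n = 7) and 573 ± 66.0 CPM in astrocyte-like cells (SD, n = 8). The difference was 1.04 log2 units in 7 of 7 mice and did not pass after adjustment (exact sign-flip permutation test, adjusted p = 0.0511). The drop from astrocyte-like to border-associated macrophage-like cells, at 84.1 ± 5.60 CPM, was 2.75 log2 units in 8 of 8 mice (exact sign-flip permutation test, adjusted p = 0.0402). S100a13, whose gene holds that of S100a1, averaged 535 ± 151 CPM in oligodendrocyte precursor-like cells (SD, n = 7), 492 ± 54.5 CPM in astrocyte-like cells and 290 ± 18.2 CPM in endothelial-like cells (SD, n = 8). It read 178 ± 11.8 CPM in T or NK-like cells, and its lowest value was 6.76 ± 3.76 CPM in neuron-like cells (SD, n = 7).

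Of 117 pairs of gene and class, 28 lay above the empty droplets, 81 below, and 8 were not called, beside 30.2% above and 41.2% below over all genes. Of 108 pairs of neighbouring classes in the order of a gene's level, 21 differed past the threshold, all at the smallest p that 8 mice allow, and none passed with at least 5000 UMIs per cell. Leaving out a mouse leaves too few for any to pass and says nothing of their stability. Over 14 changes of processing, the highest class stayed as given for S100a4, S100a6, S100a8, S100a9, S100a10 and S100a11 in all 14, for S100a1 and S100a13 in 13 and for S100b in 8; the other settings exchanged astrocyte-like and oligodendrocyte precursor-like cells.

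The genes with the most similar profile over the 13 classes were sought among 13340 genes by Pearson's r of log2(mean CPM + 1), as a description, since the classes share libraries and depth. For S100a9 the closest was Ngp (r = 0.968), a neutrophil granule gene, followed by Wfdc21. Dhrs9 and Rab44 were among the closest for S100a8. For S100b they were Cdh19 (r = 0.990), Plekhb1 and Greb1, and for S100a1 Dbi (r = 0.921), Dhrs1 and Lxn. The closest gene was Nop9 for S100a4 (r = 0.876, then Vdr and Noc4l), Pdcd6 for S100a6 (0.920, then Grpel1 and Elob), Dnaja2 for S100a10 (0.826, then Nt5c and Polr2l), Tax1bp1 for S100a11 (0.928, then Dph3 and Dock5) and Golga7 for S100a13 (0.895, then Adh5 and Taf13). Among the 9 genes themselves the closest pairs were S100a8 with S100a9 (r = 0.961), S100a1 with S100b (0.836), S100a1 with S100a13 (0.806) and S100a6 with S100a11 (0.799).

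The class with the highest level is given for the genes known to receive or bind these proteins. Of 6 receptor genes, Tlr4 was highest in neutrophil-like cells at 139 CPM, Bsg in endothelial-like cells at 9134 CPM, Mcam in smooth muscle-like cells at 809 CPM, Nptn in neuron-like cells at 642 CPM, Cd36 in border-associated macrophage-like cells at 459 CPM, and Ager peaked at 4.398 CPM, in pericyte-like cells. Of 12 binding partners, Anxa1 and Anxa2 were highest in neutrophil-like cells at 633 and 645 CPM, Ahnak in endothelial-like cells at 587 CPM, Myh9 in pericyte-like cells at 718 CPM, Cacybp in T or NK-like cells at 137 CPM and Fgf1 in smooth muscle-like cells at 247 CPM. Neutrophil-like cells, where Anxa2 was highest, read 12.3 CPM of its partner S100a10. Of 9 other S100 genes, S100a16 was highest in oligodendrocyte precursor-like cells, at 764 ± 250 CPM (SD, n = 7). Among 10 neutrophil genes, Retnlg stood at 5426 CPM, Lcn2 at 2077, Ngp at 1930 and Camp at 1527 CPM in neutrophil-like cells.

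The study's own comparison, ancrod against saline, asked what fibrinogen depletion changes after stroke. Over all kept cells of a mouse, 9 of 9 genes had a higher mean in ancrod mice, though not within both batches, and none passed the threshold (edgeR quasi-likelihood test, Benjamini-Hochberg adjusted p under 0.05); 0% of all 16175 genes tested did. Unadjusted, 3 were under 0.05, S100a6, S100a10 and S100a11, as were 17.3% of all genes, and DESeq2 called these 3, beside 5.31% of all genes fitted. S100a6 read 348, 343, 285 and 384 CPM in the saline mice and 622, 467, 556 and 693 CPM in the ancrod mice (log2 difference 0.75, SE 0.13, edgeR adjusted p = 0.160). S100a10 read 105, 107, 98.4 and 117 CPM against 197, 143, 218 and 222 CPM (0.84, SE 0.14, edgeR adjusted p = 0.160). S100a11 read 205, 219, 179 and 250 CPM against 343, 272, 375 and 383 CPM (0.66, SE 0.13, edgeR adjusted p = 0.176). For each of the 3 genes every ancrod mouse lay above every saline mouse (exact permutation test, p = 0.0286, the smallest that 4 against 4 allow), and 8.25% of 17873 genes had groups that did not overlap. The log2 difference was 0.75 within the first batch and 0.85 within the second for S100a6, 0.84 and 0.92 for S100a10 and 0.71 and 0.61 for S100a11. For 4 other genes the batches differed in sign, with 1.68 within the first and -1.79 within the second for S100a8, 1.57 and -2.04 for S100a9, 0.31 and -0.48 for S100a4 and 0.41 and -0.04 for S100a1.

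**Figure D4:**
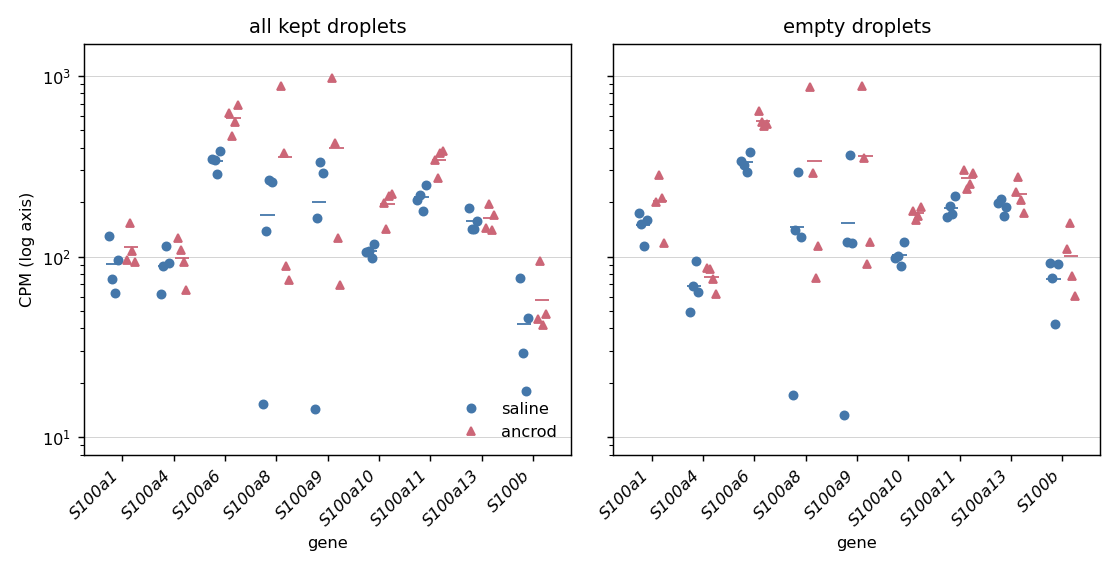
CPM of the 9 genes over all kept cells of each mouse on a log axis, saline as circles and ancrod as triangles. For S100a6, S100a10 and S100a11 the ancrod mice lie above all saline mice, while S100a8 and S100a9 overlap over a range of more than 50-fold.

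The empty droplets moved the same way, with log2 differences of 0.77 for S100a6, 0.77 for S100a10 and 0.54 for S100a11, each without overlap (edgeR adjusted p = 0.461). The share of all genes without overlap in empty droplets is not given here. Of 13200 genes fitted there, 0 passed, and 1142 had an unadjusted edgeR p under 0.05, as these 3 did. The make-up of the kept cells moved as well. Fibroblast-like cells were 2.84% ± 1.62 of kept cells in saline mice and 6.14% ± 3.62 in ancrod mice, and infiltrating macrophage-like cells 4.31% ± 0.816 and 7.09% ± 0.769 (SD, n = 4), while endothelial-like cells were 21.0% ± 1.61 and 11.3% ± 4.26. The shares of the last 2 classes did not overlap between groups (exact permutation test, p = 0.0286, adjusted p = 0.171), and no share passed after adjustment. With every class given the same share in each mouse, a calculation added after the data were seen, the log2 differences were 0.19 for S100a6, 0.36 for S100a10 and 0.15 for S100a11 (exact permutation test, p = 0.20, 0.0571 and 0.0286; adjusted over the 9 genes, p = 0.30, 0.257 and 0.257). At 0.0286, the smallest p possible, the adjusted p could not have passed for a single gene of 9, and S100a11 was at that p with and without the common make-up.

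Within classes, 90 of the 117 pairs of gene and class passed the filter on low counts, and none passed the threshold without a batch term. A batch term or a replicate block gave 1 call, S100a6 in pericyte-like cells. The share of all genes called under those 2 fits is not given here, so that call has no background beside it. Unadjusted, 16 pairs were under 0.05, 14 of them higher and 2 lower in ancrod mice, beside 6.56% of the 122790 gene and class pairs over all genes. The median over the 90 pairs was 0.164, while the median over all genes of a class lay between -0.01 and 0.04 in the 13 classes. DESeq2 called 2 pairs, S100a6 in microglia-like cells (0.89, DESeq2 adjusted p = 0.0452) and S100a11 in pericyte-like cells (0.61, DESeq2 adjusted p = 0.0045), beside 0.0229% and 1.14% of all genes fitted in these classes and 0.407% over the 13 classes together. Against this, edgeR called 0% of all genes in 11 classes, 0.0241% in fibroblast-like cells (3 of 12467) and 0.353% in pericyte-like cells (32 of 9066). S100a6 was higher in ancrod mice in 11 of the 13 classes tested, S100a10 in 10 of 12 and S100b in 6 of 6. S100a11 was higher in 9 of 13, S100a13 in 9 of 12, S100a1 in 7 of 12 and S100a9 in 3 of 5. S100a8 was tested in 7 classes and higher in 4, and S100a4 in 10 classes and higher in 4.

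In pericyte-like cells, S100a11 read 455, 433, 448 and 474 CPM in saline mice and 816, 625, 471 and 734 CPM in ancrod mice, with ancrod mouse 3 inside the saline range (log2 difference 0.60, SE 0.15, edgeR adjusted p = 0.0944). S100a6 read 49.0, 29.4, 53.4 and 99.1 CPM against 165, 95.7, 53.2 and 176 CPM (1.12, SE 0.33, edgeR adjusted p = 0.159). The log2 differences within the first and the second batch were 0.52 and 0.63 for S100a11 and 1.23 and 0.83 for S100a6. The edgeR adjusted p of S100a6 was 0.0474 with a batch term and 0.0153 with a replicate block, 0.0731 and 0.0715 for S100a11. The block joins mice that share only a replicate number. In this class the deviations of such mice correlated at 0.02, 0.004, -0.05 and 0.07 for replicates 1 to 4. Summed markers of 2 other classes were higher in these cells without overlap. Those of fibroblasts ran from 689 to 925 CPM in saline mice and from 950 to 1302 CPM in ancrod mice, with 4 of 6 higher. Those of infiltrating macrophages ran from 158 to 176 and from 226 to 416 CPM, with 5 of 7 higher. Ependymal markers were lower without overlap, at 494 to 558 and 407 to 473 CPM, and the sums of the remaining classes overlapped. The pericyte markers ran from 28119 to 31490 and from 27868 to 30177 CPM. Empty droplets averaged 333 CPM of S100a6 in saline and 565 CPM in ancrod mice, and 186 and 271 CPM of S100a11. The part of these markers and of free RNA in the pericyte-like values was not tested.

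In microglia-like cells, S100a6 averaged 3.94 CPM in saline and 7.00 CPM in ancrod mice without overlap, as did 2.21% of all genes in the class (0.89, SE 0.19, edgeR adjusted p = 0.963), and the difference was 0.85 within the first batch and 0.25 within the second. In border-associated macrophage-like cells, S100a10 was higher by 0.61 without overlap, beside 3.89% of all genes (edgeR adjusted p = 0.514), with 0.81 within the first batch and 0.10 within the second. All 6 fibroblast markers were higher in ancrod mice in both classes, with sums of 3.39 to 23.1 CPM in saline and 11.2 to 65.9 CPM in ancrod mice in microglia-like cells and of 3.94 to 17.7 and 11.8 to 58.4 CPM in border-associated macrophage-like cells. The summed neuron markers of microglia-like cells ran from 3.01 to 5.03 CPM in saline mice and from 5.18 to 13.95 CPM in ancrod mice, without overlap and with 5 of 6 higher. The summed astrocyte markers of border-associated macrophage-like cells ran from 19.7 to 72.4 and from 55.9 to 301 CPM, with 6 of 6 higher. Empty droplets averaged 333 CPM of S100a6 in saline and 565 CPM in ancrod mice, a log2 difference of 0.77. For S100a10 they averaged 102 and 173 CPM, a log2 difference of 0.77. The part of these markers and of free RNA in the results was not tested. In all, 6 of 117 pairs had groups that did not overlap, 5 of them higher in ancrod mice, beside 4.13% of 167837 gene and class pairs over all genes. The further higher ones were S100b in endothelial-like cells (2.99 and 3.92 CPM), S100a13 in pericyte-like cells (61.4 and 71.2) and S100a9 in border-associated macrophage-like cells (0.990 and 10.3). For the last, 1 cell held 98.3% of the UMIs of ancrod mouse 3 and 1 cell 94.1% of those of ancrod mouse 4. Ancrod mouse 2 had 4 UMIs (2.48 CPM), beside 2.21 CPM in saline mouse 4. The lower one was S100a11 in neuron-like cells (14.8 and 2.48 CPM), below the 186 and 271 CPM of empty droplets. It rests on 3 saline mice, since saline mouse 3 had 7 such cells (exact permutation test, p = 0.0571).

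S100a8, S100a9 and S100b showed no difference that passed in the class where each was abundant. In neutrophil-like cells the log2 difference was -0.28 for S100a8 (SE 0.47) and -0.35 for S100a9 (SE 0.45), with an edgeR adjusted p of 0.993 for both. In astrocyte-like cells S100b differed by 0.17 (SE 0.12). Fibroblast-like cells had 0.41 for S100a6 and 2.11 for S100a4 (edgeR adjusted p = 0.286 and 0.207). The S100a4 value rested largely on ancrod mouse 4, at 53.1 CPM: without it the difference was 1.06, and it was 0.83 within the first batch and 2.92 within the second. The summed smooth muscle markers of fibroblast-like cells ran from 142 to 530 CPM in saline mice and from 337 to 1662 CPM in ancrod mice, with 3 of 5 higher and none at 0. The class's own fibroblast markers ran from 29705 to 36355 CPM in saline and from 24651 to 30426 CPM in ancrod mice, with 0 of 6 higher, and the T or NK markers averaged 0.686 and 2.14 CPM, with 6 of 7 higher. Their part was not tested. Oligodendrocyte precursor-like cells had -2.76 for S100a4, where saline mice 1 and 4 read 605 and 779 CPM against 33.5 to 72.5 CPM in the other 5 mice, and 97.1% and 99.1% of those UMIs came from 1 and 5 cells. None of the related genes passed either: 0 of 136 pairs of binding partner and class were called by edgeR, with 17 higher and 4 lower at an unadjusted p under 0.05 (6.56% of all pairs, as above), and 0 of 48 receptor pairs, 0 of 22 pairs of neutrophil genes and 0 of 19 pairs of other S100 genes. DESeq2 called 0 pairs in each of these lists as well. Unadjusted, 2 receptor pairs, 3 pairs of neutrophil genes and 2 pairs of other S100 genes were higher and 1 of each lower. The median log2 difference was 0.03 for binding partners, 0.04 for receptors, 0.10 for other S100 genes and -0.21 for neutrophil genes.

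**Figure D5:**
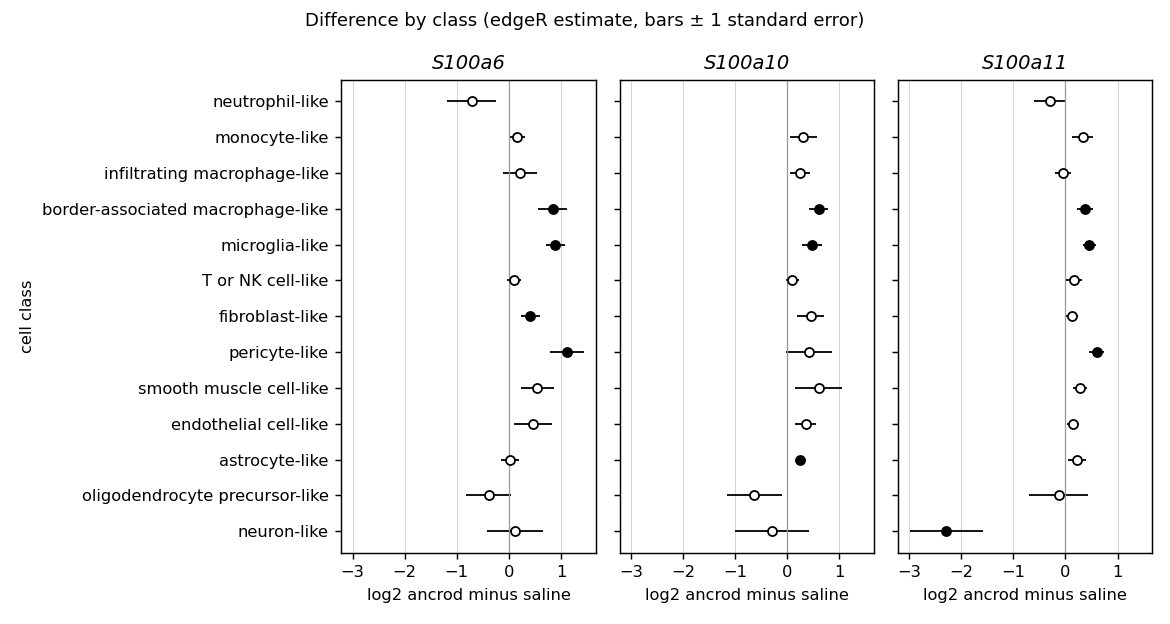
Log2 difference between ancrod and saline mice of S100a6, S100a10 and S100a11 by class, in 3 panels, with bars of ±1 SE from the edgeR fit and filled points where the unadjusted p was under 0.05. No point passed after adjustment, and most points lie above 0.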

How the data were processed

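The authors deposited 1 matrix per mouse of UMI counts per gene and droplet, unfiltered and not normalized. The submitters' processing notes name Cell Ranger 7.1.0, STAR and the genome build GRCm39 (mm39), and the library was a 3′ droplet library. Whether reads were counted by strand is not given in the sources used here. Because 3′ counts hold 1 tag per molecule and no correction for gene length, and because single cells are shallow, levels are compared between classes and mice, not between genes.

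Droplets with at least 2000 UMIs and mitochondrial UMIs under 20% were kept (the study's limit was 30%), and doublets were removed by a nearest-neighbour score at an expected 0.8% per 1000 droplets (2144 droplets). Counts were scaled to 10000 UMIs, and without the 9 genes and the mitochondrial genes the 3000 most variable genes were reduced to 30 principal components and clustered (20 neighbours, Leiden, resolution 2). Each cluster was called after the class whose markers scored highest in it. A cluster stayed unnamed with under 3 markers detected, with more markers of another class than of its own among its 10 leading genes, or, when none of its own was among them, with low UMIs or a second class at 0.5 of the first score or more, this last rule being set after the clusters were seen. Classes rebuilt in this way may differ from those of the study. Of 110 markers, 108 were in the matrices.

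The mouse was the replicate; the labels call the samples biological replicates. UMIs were summed per mouse and class (at least 10 cells) and ancrod was compared with saline by edgeR 4.0.16 (R 4.3.3; TMM, its filter on low counts, quasi-likelihood test, Benjamini-Hochberg over all genes of a class at 0.05), with DESeq2 1.42.0 as the alternative. Levels were compared with empty droplets (at most 100 UMIs), between neighbouring classes and as the ratio of S100a8 to S100a9 (0.5 UMI added to each) by two-sided exact sign-flip tests over mice of log2(CPM + 1), which understates changes of low genes. The adjustment of the first of these over all genes at 10 CPM or more in a class was added after the data were seen and gave the same number of calls, 28 above and 81 below. Shares of cells with a UMI were read after thinning each cell to 2000 UMIs. The count model and the sign-flip tests were tested on simulated data. Python 3.11.15, leidenalg 0.10.2 and scipy 1.17.1 were used.

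The 9 genes, the lists and the tests were chosen with earlier results of these data known. All 9 genes are described; the 3 genes with the most similar profile, of those at 10 CPM or more in a class, and the highest gene of each list's most abundant class are named by rule, and further list genes were named after their values were seen. Some genes with a similar profile are not reported here. Samples with the same replicate number did not deviate together beyond the batch (correlations of deviations from the group means over all kept cells of -0.49, -0.25, -0.04 and 0.10 for replicates 1 to 4).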

Additional observations from a re-analysis of the deposited data

Results flagged for a closer look

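In 20 of 169 groups of 4 mice with at least 30 UMIs in all, one mouse stood far from the other 3 (a gap that is a large part of the group's range); chance gives about 5% of groups. Ancrod mouse 1, the one with the highest S100a8 and S100a9 in its empty droplets, accounted for S100a8 in astrocyte-like (13.7 CPM, the other ancrod mice 0.333 to 2.34), fibroblast-like (54.5), monocyte-like (650), pericyte-like (96.2) and T or NK-like cells (86.4), and for S100a9 in fibroblast-like (69.8), monocyte-like (626) and pericyte-like cells (176). Much of this came from few cells: 5 cells held 96.7% of the S100a8 UMIs of monocyte-like cells in that mouse (2388 in the highest), 2 cells 94.3% of those of fibroblast-like cells, and 1 cell each 94.3% of those of pericyte-like and 90.9% of those of T or NK-like cells.

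Saline mouse 3 stood apart in endothelial-like cells, with 29.2 CPM of S100a8 and 38.6 CPM of S100a9, and 1 cell with 561 S100a8 UMIs held 93.3% of them. Ancrod mouse 4 was low in the same class, at 0.399 CPM for either gene. Saline mouse 1, with 12 neutrophil-like cells, had 0.651 CPM of S100a8 in microglia-like cells, where the other saline mice had 2.00 to 2.18 CPM, and 6.36 CPM of S100a11 there, above the others' 5.08 to 5.24 CPM.

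S100a4 in neutrophil-like cells read 77.5 CPM in saline mouse 3, with 86.1% of its UMIs in 1 cell, and at most 3.48 CPM in the other saline mice; in endothelial-like cells saline mouse 2 read 8.52 CPM. S100a10 was high in border-associated macrophage-like cells of ancrod mouse 1 (332 CPM, the others 208 to 218) and in fibroblast-like cells of ancrod mouse 4 (653 CPM, the others 417 to 442). The last 2 were S100a1 in border-associated macrophage-like cells of saline mouse 2 (74.3 CPM, below 86.3 to 88.5 in the others) and S100a13 in T or NK-like cells of ancrod mouse 2 (196 CPM, above 173 to 177).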

How the results depend on the processing

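The 16 ancrod differences within classes and 3 over all kept cells with an unadjusted p under 0.05 kept their direction under the settings run (the others were not rerun), while the order of astrocyte-like and oligodendrocyte precursor-like cells was exchanged for S100b in 6 of 14 settings and for S100a1 and S100a13 in 1 each (resolution 1). Of the gene and class pairs called for ancrod against saline (0), DESeq2 gave 2, no filter on low counts 4 (S100a6, S100a8, S100a9 and S100a11 in pericyte-like cells), a batch term 1 (S100a6 in pericyte-like cells) and doublets kept 1. Leaving out single mice gave 0 to 2, with S100a6 and S100a11 in pericyte-like cells without ancrod mouse 3. The number of calls with the replicate number as a block was 1, S100a6 in pericyte-like cells, and 0 over all kept cells, and the samples share only a number. Apart from DESeq2, the share of all genes called under these settings is not given here. In pericyte-like cells of ancrod mouse 1, 1 cell held 94.3% of the S100a8 UMIs and 1 cell 96.3% of those of S100a9. The S100a9 difference there was 3.11 within the first batch and -2.01 within the second. Over all kept cells (0), DESeq2 gave 3 and leaving out single mice 0 to 1 (S100a10 without ancrod mouse 2, edgeR adjusted p = 0.0350). The 28 pairs above empty droplets ranged from 24 to 29 over all settings. The 21 steps between neighbouring classes became 33 at resolution 1 and 0 at a minimum of 5000 UMIs. The 5 classes with another S100a8 to S100a9 ratio became 0 at 5000 UMIs, with doublets kept and with empty droplets of at most 20 UMIs. Leaving out any mouse gave 0 for both, and 7 mice allow no p under 0.0156. Over all mice, that p met an adjusted p of 0.0511 for the steps and 0.0406 for the ratio (exact sign-flip permutation tests). For the ratio the limit thus does not by itself account for the 0. Apart from that limit the causes were not tested. Levels moved by less than 1 SD in all 124 comparisons run. Classes of few cells, such as neutrophil-like cells in saline mouse 1, limit precision, and SDs and exact tests cover the spread between mice.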

Other observations

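An unnamed cluster of 354 cells was led by Prtn3, a granule gene of immature neutrophils, followed by genes of dividing cells such as Top2a and Mki67. Its marker scores were highest for infiltrating macrophages (0.187) and border-associated macrophages (0.185). Prtn3 read 1508 CPM in ancrod mouse 1 and 1.94 to 107.5 CPM in the other mice, and the S100a8 of the cluster differed widely between mice. Its 75 cells in ancrod mouse 1 read 9561 CPM of S100a8 and 8696 CPM of S100a9, with 1625 CPM of Elane and 467 CPM of Mpo, which encode neutrophil granule enzymes. Its 28 cells in ancrod mouse 2 read 3351 CPM of S100a8 and its 31 cells in saline mouse 4 read 1993 CPM, while in the other 5 mice S100a8 lay between 1.94 and 53.6 CPM. Over all unnamed clusters, 1 cell held 99.0% of the S100a9 UMIs in ancrod mouse 2 and 1 cell 99.7% in saline mouse 4. The values of these 2 mice may therefore rest on single cells. In ancrod mouse 1, 15 cells held 99.6%. An unnamed cluster led by Fabp7 and Igfbp2, close to astrocytes by its markers, read 2689 CPM of S100a6. These values were singled out after they were seen and were not tested.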
